A study of Mus musculus with 6 samples.

Results

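The BAF complex subunit switch was followed through 10 genes in RNA sequencing data from a mouse embryonic stem cell line, E14TG2a, carried through neuronal differentiation. The genes were the rows of the gene abundance tables named Smarca2, Smarca4, Actl6a, Actl6b, Dpf1, Dpf2, Dpf3, Ss18, Ss18l1 and Phf10, 10 of 46517 gene IDs. Each name matched 1 row in each of the 6 tables, and all 10 were among the 20232 genes tested. The first stage, mESC, is the undifferentiated cells, grown on gelatin in serum medium to which leukaemia inhibitory factor (LIF) was added. The second, NPC, is read as the progenitors of the study's design text and the last, NC, as its glutamatergic pyramidal neurons, since the titles give only these letters. All samples carry the genotype label WT; mESC has no treatment, and NPC and NC have neuronal differentiation as theirs. Each stage had 2 libraries, described as biological replicates of this single line, so the p-values measure the spread between these libraries and not between independent lines.

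BAF complexes, the mammalian SWI/SNF remodellers, use the energy of ATP to slide or evict nucleosomes. They are built from interchangeable paralogues, and several positions are known to be refilled as neural progenitors leave the cell cycle. Stem cells and progenitors use the actin-related protein ACTL6A (BAF53a), the PHD finger proteins DPF2 (BAF45d) and PHF10 (BAF45a) and the coactivator SS18, while neurons use ACTL6B (BAF53b), DPF1 and DPF3 (BAF45b and BAF45c) and SS18L1 (CREST). The motor of the complex is either SMARCA4 (BRG1), the ATPase of the stem cell form, or SMARCA2 (BRM), which joins during differentiation.

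Values are deposited TPM, a transcript abundance which corrects for transcript length and sets every library to one common total. Aligned bases were inferred from the deposited values, as the most frequent ratio of coverage (a read depth) to FPKM. They came to 1.57 to 2.27 Gb per library, and 16667 to 19040 genes reached 1 TPM. Summed over 5 stem cell markers, TPM lay between 4738 and 5075 in mESC, between 10.7 and 11.1 in NPC and between 9.93 and 14.6 in NC. Nanog was listed at 0 in both NPC libraries and Pou5f1 in both NC libraries. From NPC to NC, 2 of these markers fell, 2 were not called and 1, Esrrb, rose. Esrrb had 1.29 and 1.47 TPM in NPC and 12.3 and 8.44 TPM in NC (log2 fold change 2.24, limma adjusted p = 0.00308). The sum of 6 neuron markers was 89.3 to 122 in mESC, 456 to 744 in NPC and 2649 to 2949 in NC. The sum of 6 progenitor markers was 194 to 255 in mESC, 1377 to 1463 in NPC and 1694 to 2484 in NC, with all 6 at 1 TPM or more in both NC libraries. The members of that list went apart from NPC to NC, where Vim and Fabp7 rose, Pax6 fell by 2.05 on the log2 scale (limma adjusted p = 0.0159), and the median log2 fold change was -0.42. The NC libraries differed widely for some markers. In NC replicates 1 and 2, Fabp7 had 792 and 164 TPM, Hes5 131 and 13.7, and the astrocyte marker Aldh1l1 59.3 and 1.89. Vim was alike in both (1385 and 1354 TPM), and Nes was higher in replicate 2 (84.2 and 120 TPM). The 6 fibroblast and muscle markers summed to 80.5 to 124 in mESC, 35.1 to 69.99 in NPC and 845 to 1038 in NC, with 5 of the 6 at 1 TPM or more in both NC libraries. Of the astrocyte markers 2 of 5 reached 1 TPM in both NC libraries (sum 48.8 to 157), of the oligodendrocyte markers 3 of 5 (35.03 to 36.11), of the endoderm markers 5 of 5 (26.1 to 51.8, and 123 to 180 in NPC) and of the microglia markers 1 of 4 (1.21 to 3.23). The part of these other cells in the changes described here was not tested. In bulk RNA, fewer cells of a type and less RNA per cell cannot be told apart.

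Across the whole course, 9 of the 10 subunit genes changed between NC and mESC, 7 higher and 2 lower, where 59.9% of all tested genes were called (37.8% higher and 22.1% lower; limma on log2(TPM + 1), Benjamini-Hochberg adjusted p under 0.05). All 5 neuronal paralogues rose. Of the 5 stem cell and progenitor paralogues, Actl6a and Ss18 fell, Smarca4 and Dpf2 rose, and Phf10 did not pass. The median log2 fold change of the neuronal paralogues was 3.59 (the value of Smarca2), that of the progenitor paralogues 0.037, and that of all tested genes 0.31. After median-of-ratios scaling the median of all tested genes was 0.05, and the members again gave 7 higher and 2 lower. For NPC against mESC, 6 members rose and 0 fell, beside 40.0% of all genes called, 26.0% higher and 14.0% lower. For NC against NPC, 5 rose and 0 fell, beside 25.3% of all genes called, 15.2% higher and 10.1% lower. Without NPC replicate 1 that last comparison kept 1 member call, Actl6b (limma adjusted p = 0.049), and 309 genes in all. The 3 comparisons share libraries and are not independent of each other.

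**Figure D1:**
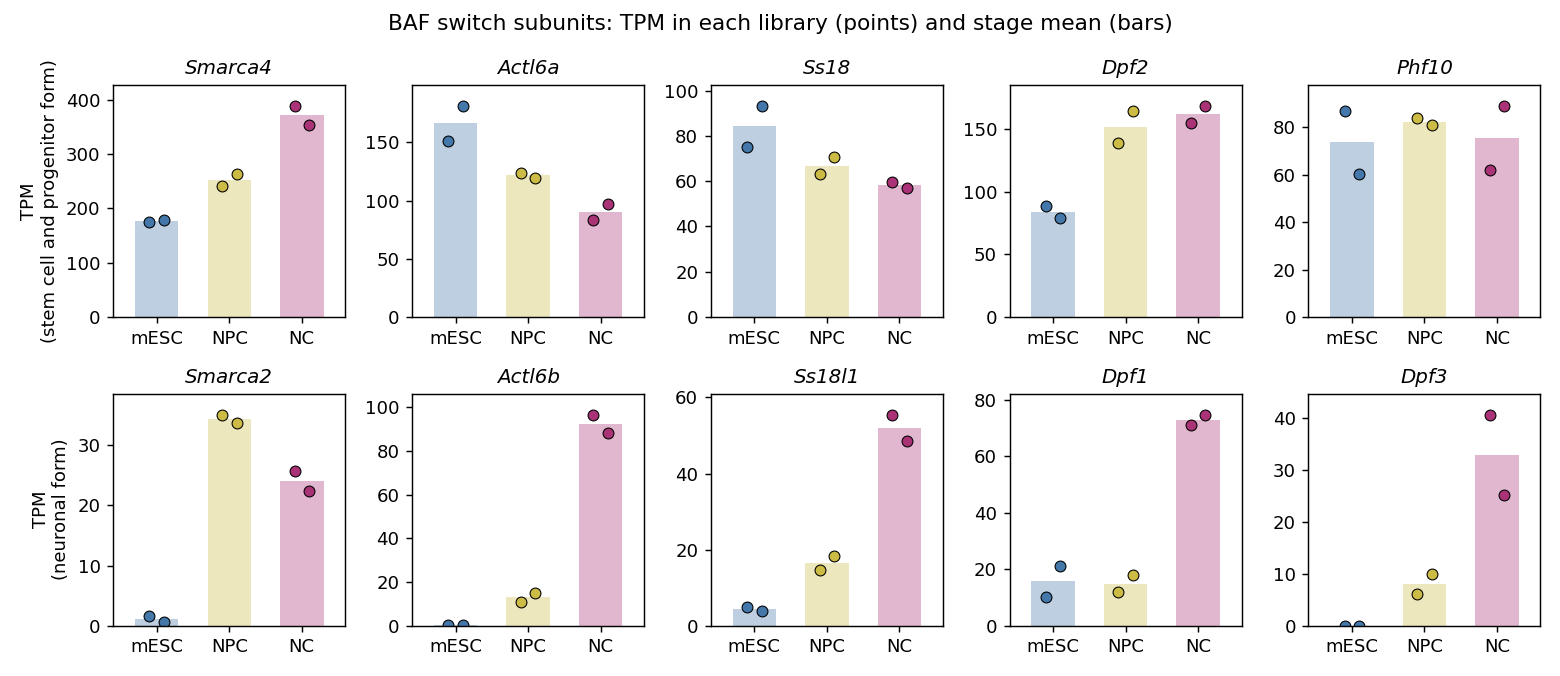
TPM (vertical axis, from 0, with its own range per gene) of the 10 subunit genes in each of the 6 libraries (points) with the mean of the 2 libraries of a stage (bars). Actl6b, Ss18l1, Dpf1 and Dpf3 are highest in NC, Smarca2 is highest in NPC, and Smarca4 stands at 354 and 388 TPM in NC.

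The ATPase position was examined first. Smarca4 (ENSMUSG00000032187.15, chromosome 9, 21616169 to 21704230, plus strand, mm10) had 174 and 178 TPM in mESC, 241 and 263 TPM in NPC, and 388 and 354 TPM in NC. The libraries of the 3 stages do not overlap, and the level was higher at each later stage. Smarca4 rose by a log2 fold change of 0.52 from mESC to NPC (SE 0.127, limma adjusted p = 0.0191), by 0.56 from NPC to NC (SE 0.127, limma adjusted p = 0.0236) and by 1.07 over the whole course (SE 0.127, limma adjusted p = 0.000628). The calls of the single steps were lost in 7 of 17 alternative settings each. That of the first step was lost without either mESC library (limma adjusted p = 0.0541 and 0.0522) and that of the next without NC replicate 1 (limma adjusted p = 0.0662) and with the replicate number as a block (limma adjusted p = 0.0515). Both were lost without either NPC library (limma adjusted p = 0.086 and 0.162 for the first step, 0.195 and 0.114 for the next) and after median-of-ratios scaling (log2 fold change 0.29 and 0.47, limma adjusted p = 0.178 and 0.0654), as well as from FPKM and without a variance trend. The call of NC against mESC was kept in all 17 alternative settings.

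Smarca2 (ENSMUSG00000024921.15, chromosome 19, 26605115 to 26778321, plus strand) had 1.56 and 0.672 TPM in mESC, 35.1 and 33.6 TPM in NPC, and 25.7 and 22.4 TPM in NC. All 4 libraries of the later stages lie far above both stem cell libraries, and NPC lies above NC without overlap. Smarca2 overlaps 4931403E22Rik over 9521 bases on the opposite strand, a gene at 0 to 2.28 TPM. The gene rose by a log2 fold change of 4.09 from mESC to NPC (SE 0.261, limma adjusted p = 0.000115). From NPC to NC the log2 fold change was -0.50 (SE 0.261, limma adjusted p = 0.208), so the lower mean in NC did not pass the test. Between NC and mESC it was 3.59 (SE 0.261, limma adjusted p = 9.22e-05). Both rises passed in all 17 alternative settings, but their size depends on the scale. The first was 2.35 from rescaled coverage and 4.92 with a pseudocount of 0.1, and that of the whole course 1.93 and 4.41.

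The summed TPM of the 2 ATPase genes was 177 ± 2.08 in mESC (mean ± SD of 2 libraries, as for all following values), 286 ± 15.1 in NPC and 395 ± 26.8 in NC. Smarca2 made up 0.634% ± 0.364 of it in mESC, 12.02% ± 0.987 in NPC and 6.09% ± 0.192 in NC. By this measure Smarca4 made up most of the ATPase TPM in every library, and the Smarca2 share was highest in both NPC libraries.

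The size of the Smarca2 share depends on how a level is read. In StringTie tables the abundance of a gene is built from its transcript models, while coverage is a read depth over its bases. The deposited ratio of coverage to FPKM equalled a constant of the library, within 0.1%, for 38.3% to 39.7% of genes of at least 1 FPKM, Ss18l1 among them (ratio 1 after division by that constant). Relative to the constant, the ratio was between 0.0939 and 0.104 for Smarca2 and between 0.836 and 0.883 for Smarca4, against a library median of 0.839 to 0.861. Dpf3 had the lowest ratio of the members, 0.0343 to 0.0408, and the other 6 lay between 0.288 and 0.755. Ratios below 0.2 were found for 6.92% to 7.69% of genes. From coverage, Smarca2 made up 0.0735% of the ATPase pair in mESC, 1.52% in NPC and 0.740% in NC. Its order over the stages is the same on both scales, while its level against Smarca4 depends on the scale. GENCODE vM21 holds other versions of 9 of these 10 gene models than the tables, so the transcript models behind the ratios were not analysed here.

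**Figure D2:**
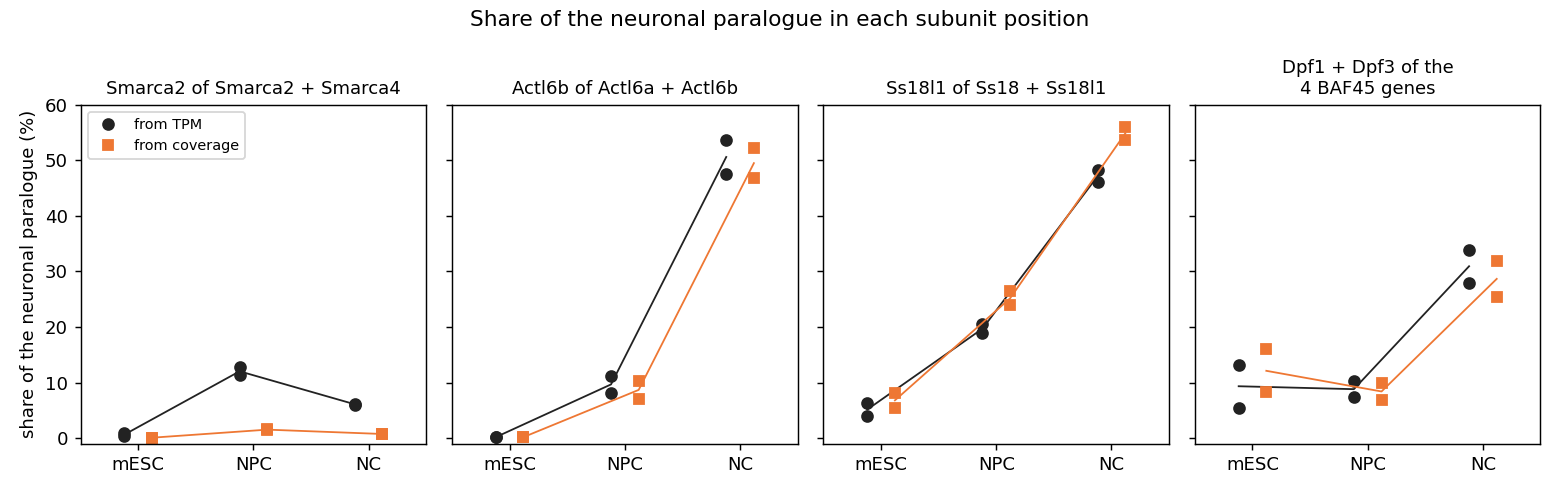
Share of the neuronal paralogue (vertical axis, percent) in each subunit position, for each library (points) and as the mean of a stage (lines), from TPM (black circles) and from coverage (orange squares). Actl6b and Ss18l1 reach 50.6% and 47.2% of their pairs in NC from TPM, while Smarca2 stays at 6.09% from TPM and 0.740% from coverage.

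At the ACTL6 position the neuronal paralogue rose while the other fell. Actl6b (ENSMUSG00000029712.13, chromosome 5, 137553517 to 137569582, plus strand), the neuronal actin-related subunit, had 0.257 and 0.335 TPM in mESC, 10.9 and 15.2 TPM in NPC, and 96.5 and 88.0 TPM in NC. The 3 stages are fully separated. It rose by a log2 fold change of 3.42 from mESC to NPC (SE 0.232, limma adjusted p = 0.000139), by 2.75 from NPC to NC (SE 0.232, limma adjusted p = 0.00293) and by 6.17 over the whole course (SE 0.232, limma adjusted p = 1.57e-05). Actl6b passed in all 17 alternative settings for each of the 3 comparisons. Its first step was 2.57 from rescaled coverage and 5.04 with a pseudocount of 0.1, and the whole course 5.33 and 7.87 (5.05 from FPKM).

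Actl6a (ENSMUSG00000027671.13, chromosome 3, 32706298 to 32726973, plus strand), its counterpart in dividing cells and also a subunit of the INO80 and TIP60 complexes, had 151 and 181 TPM in mESC, 124 and 119.5 TPM in NPC, and 83.7 and 96.8 TPM in NC. The level was lower at each later stage, again without overlap. Only the whole course passed as deposited, with a log2 fold change of -0.87 (SE 0.150, limma adjusted p = 0.00289). The steps gave -0.44 (SE 0.150, limma adjusted p = 0.0563) and -0.43 (SE 0.150, limma adjusted p = 0.0796). The first step passed in 4 of 17 alternative settings, from FPKM (-0.55, limma adjusted p = 0.029), with a TPM minimum of 5 (limma adjusted p = 0.0492), without mESC replicate 1 (limma adjusted p = 0.0457) and with median-of-ratios scaling (-0.67, limma adjusted p = 0.0202). The later step passed in 2, with quantile normalization (-0.56, limma adjusted p = 0.0276) and from FPKM (-0.59, limma adjusted p = 0.032). With median-of-ratios scaling the first step of Ss18 passed too (-0.55, limma adjusted p = 0.0484), while Smarca4 did not, which turned the members' 6 higher and 0 lower into 5 higher and 2 lower. Actl6a overlaps Mrpl47 over 1577 bases on the opposite strand, a gene at 16.3 to 23.6 TPM, and the labels do not say whether strand was used in quantification.

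The summed level of the 2 genes was 167 ± 21.2 TPM in mESC, 135 ± 0.186 in NPC and 183 ± 3.33 in NC. Actl6b made up 0.177% ± 0.0109, 9.66% ± 2.25 and 50.6% ± 4.21 of it. Coverage gave 0.182%, 8.68% and 49.5%. In NC the libraries of Actl6b (96.5 and 88.0 TPM) and Actl6a (83.7 and 96.8 TPM) overlap.

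Silencing of Actl6a in new neurons is known to involve the microRNAs miR-9-3p (miR-9*) and miR-124, whose genes are repressed by REST in cells outside the nervous system. The mature miR-9 sequences (RefSeq, GRCm38.p6) are shown because 1 arm has a seed match in Actl6a. Capitals mark the seed, bases 2 to 8, which the 2 arms do not share. Both arms are made from 3 loci, Mir9-1 on chromosome 3, Mir9-2 on chromosome 13 and Mir9-3 on chromosome 7.
mmu-miR-9-3p: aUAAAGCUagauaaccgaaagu
mmu-miR-9-5p: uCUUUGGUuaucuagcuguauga
The longest 3′ untranslated region of each gene in GENCODE vM21 (mm10) was searched on the transcript strand for the letters pairing with each seed, AGCTTTA for miR-9-3p and ACCAAAG for miR-9-5p. The first is present in 2 of the 10 members, Actl6a and Smarca2, beside 11.3% of 21037 such regions, and the other in 0 of 10, beside 12.2%. The stretches that hold it are printed with the match in capitals, with the position of the match.
Actl6a, chr3:32726640-32726646, plus strand: cacctcaacgtctgtAGCTTTAg
Smarca2, chr19:26777502-26777508, plus strand: ttgtcatctagaactAGCTTTAg
The Actl6a match starts at position 38 of 371 bases, and 2.82% of the 15665 regions at least that long hold the letters in their first 371 bases. The Smarca2 match starts at position 132 of 952 bases, with 8.11% of 10586 regions as the background. Actl6b has no such match in 196 bases. A match is a run of letters and was not tested as a binding site.

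Genes that encode or control these regulators were read from a list of 6, chosen with earlier results of these data known. Rest, the repressor of neuronal genes, had 84.5 and 111 TPM in mESC, 20.1 and 19.2 TPM in NPC, and 12.6 and 16.6 TPM in NC. It fell from mESC to NPC by 2.25 on the log2 scale (SE 0.209, limma adjusted p = 0.000433) and did not pass from NPC to NC (limma adjusted p = 0.193). Ptbp1, a splicing repressor of dividing cells that miR-124 targets, had 546 and 642 TPM in mESC, 488 and 455 TPM in NPC, and 243 and 268 TPM in NC. It did not pass in the first step (log2 fold change -0.33, limma adjusted p = 0.113) and fell in the next by 0.88 on the log2 scale (limma adjusted p = 0.0086). All 4 microRNA host transcripts on this list rose between mESC and NC, where 37.8% of all tested genes were called higher. The list held none for Mir9-1. Mir124-2hg was at 0.00871 and 0 TPM in mESC, 206 and 276 TPM in NPC, and 222 and 242 TPM in NC, with no call from NPC to NC (limma adjusted p = 0.903). Mir124a-1hg had 11.6 and 7.47 TPM in mESC, 30.02 and 52.9 TPM in NPC, and 181 and 164 TPM in NC, and passed in all 3 comparisons. C130071C03Rik, whose span holds Mir9-2, had 0.457 and 0 TPM in mESC, 37.6 and 65.8 TPM in NPC, and 99.8 and 32.4 TPM in NC, where the libraries differ widely. Mir9-3hg, listed in the tables as AI854517, had 3.18 and 3.09, 30.5 and 108, and 226 and 60.1 TPM, with wide spread in both later stages. Neither C130071C03Rik nor Mir9-3hg passed from NPC to NC (limma adjusted p = 0.826 and 0.359). Mature microRNAs were not measured.

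At the SS18 position, too, the neuronal paralogue rose. Ss18l1 (ENSMUSG00000039086.9, chromosome 2, 180042509 to 180070201, plus strand), a calcium-responsive coactivator needed for dendrite growth, had 5.02 and 3.90 TPM in mESC, 14.7 and 18.3 TPM in NPC, and 55.4 and 48.7 TPM in NC. The stages do not overlap. It rose by a log2 fold change of 1.68 in the first step (SE 0.214, limma adjusted p = 0.00149), by 1.61 in the next (SE 0.214, limma adjusted p = 0.00523) and by 3.29 over the whole course (SE 0.214, limma adjusted p = 5.97e-05). The call from NPC to NC was lost without NPC replicate 1 (log2 fold change 1.46, limma adjusted p = 0.0666).

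Ss18 (ENSMUSG00000037013.14, chromosome 18, 14624198 to 14682914, minus strand), its partner in stem cells and progenitors, had 75.2 and 93.2 TPM in mESC, 63.2 and 70.6 TPM in NPC, and 59.5 and 57.0 TPM in NC. Each later stage lies below the earlier without overlap. It fell over the whole course by 0.52 on the log2 scale (SE 0.157, limma adjusted p = 0.0276), and neither step passed (log2 fold change -0.32 and -0.19, limma adjusted p = 0.152 and 0.405). The call was lost without mESC replicate 2 (limma adjusted p = 0.0816) and without each NPC or NC library (limma adjusted p from 0.0625 to 0.0932). The total of the pair was 88.7 ± 11.98 TPM in mESC, 83.4 ± 7.83 in NPC and 110 ± 6.51 in NC. Ss18l1 made up 5.14% ± 1.59, 19.7% ± 1.22 and 47.2% ± 1.57 of it, and in NC both libraries kept Ss18 above Ss18l1 in TPM. From coverage its share was 6.79%, 25.2% and 54.9%, which puts Ss18l1 above Ss18 in NC. The order of these genes in NC therefore depends on the unit.

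**Figure D3:**
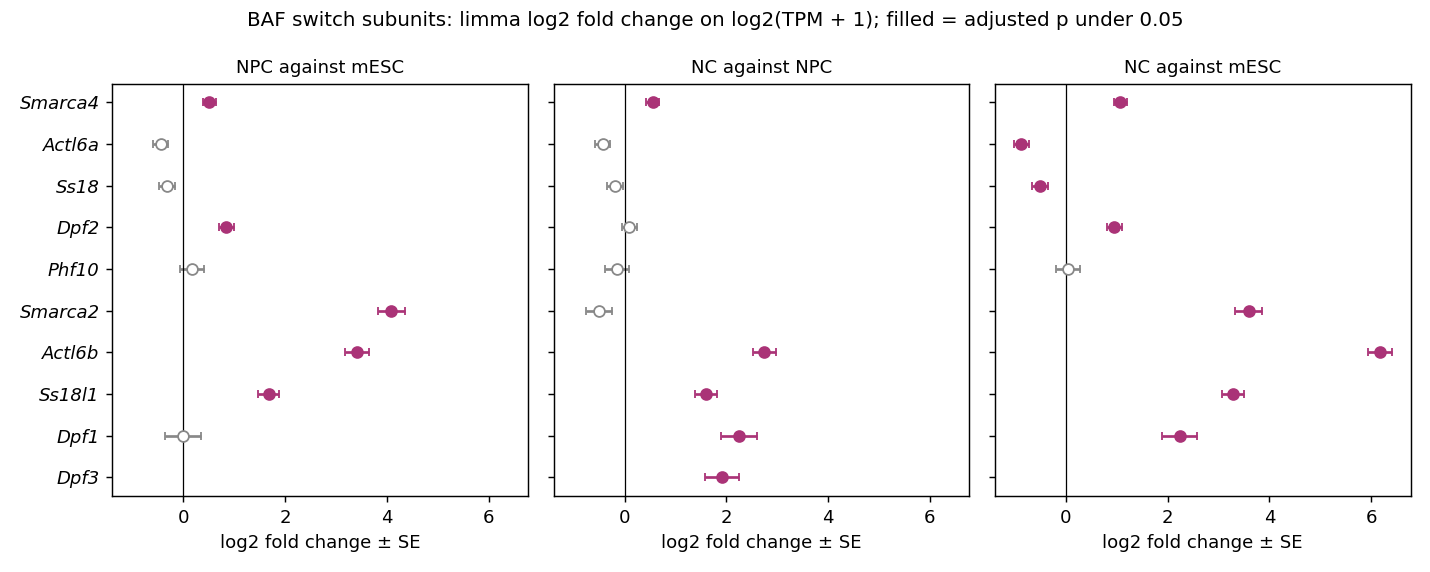
Limma log2 fold change with its SE (horizontal axis) of the 10 subunit genes in the 3 comparisons, with filled points for an adjusted p under 0.05. Actl6b has the highest value in NC against mESC (6.17), and Actl6a and Ss18 are the filled points below 0 in that panel. Dpf3 is left out against mESC, where it is listed at 0.

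The BAF45 position holds 4 paralogues, which did not move as 1 block. Dpf1 (ENSMUSG00000030584.12, chromosome 7, 29303951 to 29317588, plus strand), a neuronal PHD finger subunit, had 10.2 and 21.2 TPM in mESC, 11.8 and 18.0 TPM in NPC, and 71.2 and 74.7 TPM in NC. The mESC and NPC libraries overlap fully, and both NC libraries are above them. Its log2 fold change was -0.0097 from mESC to NPC (SE 0.351, limma adjusted p = 0.989) and 2.24 from NPC to NC (SE 0.351, limma adjusted p = 0.00781). The call was lost without NPC replicate 1 (log2 fold change 1.96, limma adjusted p = 0.0786) and without NC replicate 2 (2.21, limma adjusted p = 0.0541). Dpf1 was thus the neuronal paralogue with no called change in the first step, and it had the highest stem cell level of the 5.

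Dpf3 (ENSMUSG00000021221.14, chromosome 12, 83213745 to 83487716, minus strand), known also from heart and muscle, was listed at 0 for mESC replicates 1 and 2, with 6.01 and 9.89 TPM in NPC and 40.6 and 25.1 TPM in NC. With no read counts, a listed 0 need not mean that the RNA was absent, so no fold is given against the stem cells. All 37 mitochondrial genes, which every cell uses, are also listed at 0 in all 6 libraries. Zeros of a whole chromosome do not tell how the 0 of Dpf3 arose. The difference from mESC passed for NPC (limma adjusted p = 0.000773) and for NC (limma adjusted p = 6.72e-05). The log2 fold change from NPC to NC was 1.92 (SE 0.338, limma adjusted p = 0.0107), and without NPC replicate 1 it was 1.60 (limma adjusted p = 0.0962). From rescaled coverage it was 1.02 (limma adjusted p = 0.0432). Its coverage was only 0.219 and 0.303 in NPC and 1.21 and 0.777 in NC, and on rescaled coverage the first step did not pass (limma adjusted p = 0.211).

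Dpf2 (ENSMUSG00000024826.13, chromosome 19, 5896516 to 5913010, minus strand), the widely expressed paralogue, had 88.4 and 78.9 TPM in mESC, 139 and 165 TPM in NPC, and 156 and 169 TPM in NC. It rose in the first step by a log2 fold change of 0.85 (SE 0.146, limma adjusted p = 0.0047) and did not pass in the next (0.097, SE 0.146, limma adjusted p = 0.667). The first call was lost without NPC replicate 2 (0.73, limma adjusted p = 0.0589). Over the whole course it rose by a log2 fold change of 0.95 (limma adjusted p = 0.00183).

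Phf10 (ENSMUSG00000023883.12, chromosome 17, 14945009 to 14961273, minus strand), the progenitor paralogue that is also part of the PBAF form of the complex, had 87.0 and 60.4 TPM in mESC, 83.8 and 80.9 TPM in NPC, and 62.2 and 89.0 TPM in NC. The libraries of all stages overlap. Its log2 fold change between NC and mESC was 0.037 (SE 0.236, limma adjusted p = 0.903), and neither step passed (limma adjusted p = 0.588 and 0.694). It overlaps 1600012H06Rik over 14562 bases on the opposite strand, a gene at 20.5 to 36.4 TPM.

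Summed over the 4 genes, TPM was 173 ± 17.8 in mESC, 257 ± 23.1 in NPC and 344 ± 19.8 in NC. Dpf1 and Dpf3 made up 9.33% ± 5.46, 8.81% ± 1.99 and 30.9% ± 4.26 of it, and 12.1%, 8.39% and 28.7% from coverage. The shares of the mESC and NPC libraries overlap, and the share was higher in both NC libraries (33.9% and 27.9%) than in the 4 earlier ones (5.47% to 13.2%). Dpf2 remained the most abundant of the 4 in each NC library.

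Promoter sequences of 9 of the 10 members were matched by symbol in RefSeq (GRCm38.p6), and the 250 bases before the annotated start were searched on both strands for the letters of the CCAAT box (CCAAT), the GC box (GGGCGG), the TATA box (TATAAA) and an E-box (CAGCTG). The letters CCAAT occurred 3 times each in Actl6b and Dpf3, 2 times in Dpf1, once in Dpf2 and in none of Smarca2, Smarca4, Actl6a, Ss18l1 and Phf10. Of 32851 promoters of this length, 33.9% hold CCAAT at least 1 time and 10.1% at least 2 times. The 3 neuronal members with repeated CCAAT letters, all higher in NC than in NPC, are printed 5′ to 3′ on the strand of the gene, with CCAAT or its reverse complement in capitals, and Actl6a is printed beside its paralogue. They were chosen for printing after the matches were seen. The Actl6a stretch precedes a RefSeq start that lies inside the quantified gene model, which begins at 32706298. It is therefore not upstream of the start of that model. The last bases of the Actl6b and Dpf1 stretches also lie inside their quantified models, which begin at 137553517 and 29303951. The Actl6b match nearest the RefSeq start, 20 bases before it, is inside the Actl6b model too.
Actl6b, chr5:137553296-137553545, plus strand: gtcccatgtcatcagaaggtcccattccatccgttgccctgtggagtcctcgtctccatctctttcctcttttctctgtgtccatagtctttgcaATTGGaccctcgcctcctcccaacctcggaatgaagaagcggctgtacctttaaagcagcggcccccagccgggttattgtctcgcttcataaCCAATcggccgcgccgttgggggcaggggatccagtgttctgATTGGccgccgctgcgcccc
Dpf3, chr12:83487737-83487986, minus strand: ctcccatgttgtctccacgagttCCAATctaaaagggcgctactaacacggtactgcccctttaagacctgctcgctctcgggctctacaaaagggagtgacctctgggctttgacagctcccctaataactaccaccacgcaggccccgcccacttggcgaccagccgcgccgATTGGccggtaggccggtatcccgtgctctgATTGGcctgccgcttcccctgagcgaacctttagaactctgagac
Dpf1, chr7:29303755-29304004, plus strand: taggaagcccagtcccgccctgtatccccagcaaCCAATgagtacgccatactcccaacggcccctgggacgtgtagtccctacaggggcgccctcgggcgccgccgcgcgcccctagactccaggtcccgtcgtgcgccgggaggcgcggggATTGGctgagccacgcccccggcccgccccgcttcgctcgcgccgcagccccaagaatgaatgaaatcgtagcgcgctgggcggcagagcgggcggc
Actl6a, chr3:32708296-32708545, plus strand: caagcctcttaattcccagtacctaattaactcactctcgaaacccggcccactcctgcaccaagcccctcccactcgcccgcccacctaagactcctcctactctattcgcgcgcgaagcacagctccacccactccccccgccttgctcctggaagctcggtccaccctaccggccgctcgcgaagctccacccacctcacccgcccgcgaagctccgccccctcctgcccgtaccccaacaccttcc
The matches lie 155, 62 and 20 bases before the RefSeq start in Actl6b, 227, 76 and 45 in Dpf3 and 216 and 97 in Dpf1. GGGCGG occurred 0 times in Actl6b, once in Dpf3, 4 times in Dpf1 and 3 times in Actl6a, with 32.7% of all promoters holding it. TATAAA was in 0 of the 9 (12.4% of all promoters) and CAGCTG in 1, Phf10 (13.0%). CG pairs numbered 15 in Actl6b, 16 in Dpf3, 31 in Dpf1 and 19 in Actl6a, against a median of 6 over all promoters.

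Set in order of mean TPM, the stem cells were led by Smarca4 (176) and Actl6a (166), whose libraries overlap, followed by Ss18 (84.2), Dpf2 (83.6) and Phf10 (73.7), whose libraries also overlap. Below these lay Dpf1 (15.7), Ss18l1 (4.46), Smarca2 (1.118), Actl6b (0.296) and Dpf3, listed at 0. In NC the order was Smarca4 (371), Dpf2 (162), Actl6b (92.3), Actl6a (90.2), Phf10 (75.6), Dpf1 (73.0), Ss18 (58.2), Ss18l1 (52.1), Dpf3 (32.9) and Smarca2 (24.1). Neighbours whose libraries overlap in NC are Actl6b and Actl6a, Actl6a and Phf10, Phf10 and Dpf1, and Dpf3 and Smarca2. In NPC it was Smarca4 (252), Dpf2 (152), Actl6a (122), Phf10 (82.3), Ss18 (66.9), Smarca2 (34.3), Ss18l1 (16.5), Dpf1 (14.9), Actl6b (13.0) and Dpf3 (7.95), where the libraries of Ss18l1, Dpf1 and Actl6b overlap. The lowest member value in NC was 22.4 TPM, of Smarca2, so all 10 genes had a listed level in both NC libraries. Coverage in NC was only 1.76 and 1.88 for Smarca2 and 1.21 and 0.777 for Dpf3. These orders hold for TPM. By coverage, Ss18l1 (40.4 and 40.9) lay above Ss18 (31.7 and 35.3), Actl6b (23.97 and 24.8) and Actl6a (22 and 28.2) in NC.

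The genes closest to 4 members in their pattern were found by the distance between centred log2(TPM + 1) profiles over the 6 libraries. For Actl6b these were Ebf2, a transcription factor of differentiating neurons (distance 0.278), Tshz2 (0.294) and Cacna2d3, a calcium channel subunit (0.344). For Dpf1 they were Gng3, a neuronal G protein subunit (0.519), Prkcdbp (0.523) and Fam212a (0.560). For Smarca2 they were Maml3, a Notch coactivator (0.487), the WNT receptor Fzd3 (0.579) and Igfbp4, which binds insulin-like growth factors (0.595). For Smarca4 they were 2310047M10Rik (0.141), Gm37768 (0.148) and Bbs2, a cilium gene (0.148). Gng3, for example, had 25.4 and 35.4 TPM in mESC, 23.96 and 29.6 TPM in NPC, and 158 and 163 TPM in NC, with the same flat first step as Dpf1. Maml3 had 1.34 and 0.903, 41.99 and 38.3, and 23.5 and 30.1 TPM, with its highest level in NPC like Smarca2. Both likenesses follow from the choice of genes by distance over the same 6 libraries.

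The remaining 21 subunits of BAF, PBAF and ncBAF, on a list chosen with earlier results of these data known, were all tested. Between NC and mESC 13 rose and 1 fell (beside 59.9% of all genes called), and their median log2 fold change was 0.85 against 0.31 for all tested genes. From mESC to NPC 10 rose and 2 fell, beside 40.0% of all genes called (26.0% higher and 14.0% lower). From NPC to NC 3 of the 21 rose and 0 fell, beside 25.3% of all genes called (15.2% higher and 10.1% lower). Without NPC replicate 2 the first step gave 6 higher and 1 lower, and without NPC replicate 1 the next step gave 0. Of the 5 neuronal paralogues, 4 rose in each step. The 2 that fell in the first step were Bicral and Smarcd2 (BAF60b), the latter by 0.71 on the log2 scale (limma adjusted p = 0.0118).

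Among the core subunits, the scaffold Smarcc2 (BAF170) had 26.6 and 18.2 TPM in mESC, 90.9 and 94.6 TPM in NPC, and 208 and 207 TPM in NC. It rose in both steps (log2 fold change 2.02 and 1.15, SE 0.190, limma adjusted p = 0.000453 and 0.00895). Its paralogue Smarcc1 (BAF155) stayed between 162 and 189 TPM in all 6 libraries and did not pass (log2 fold change 0.042 between NC and mESC, SE 0.133, limma adjusted p = 0.802). Smarce1 (BAF57) went from 55.0 ± 9.01 TPM in mESC to 161 ± 6.62 in NPC and 188 ± 10.3 in NC, with the first step called (log2 fold change 1.54, limma adjusted p = 0.000568). Smarcc1, like Arid1a in what follows, was named beside its paralogue after the values were seen.

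**Figure D4:**
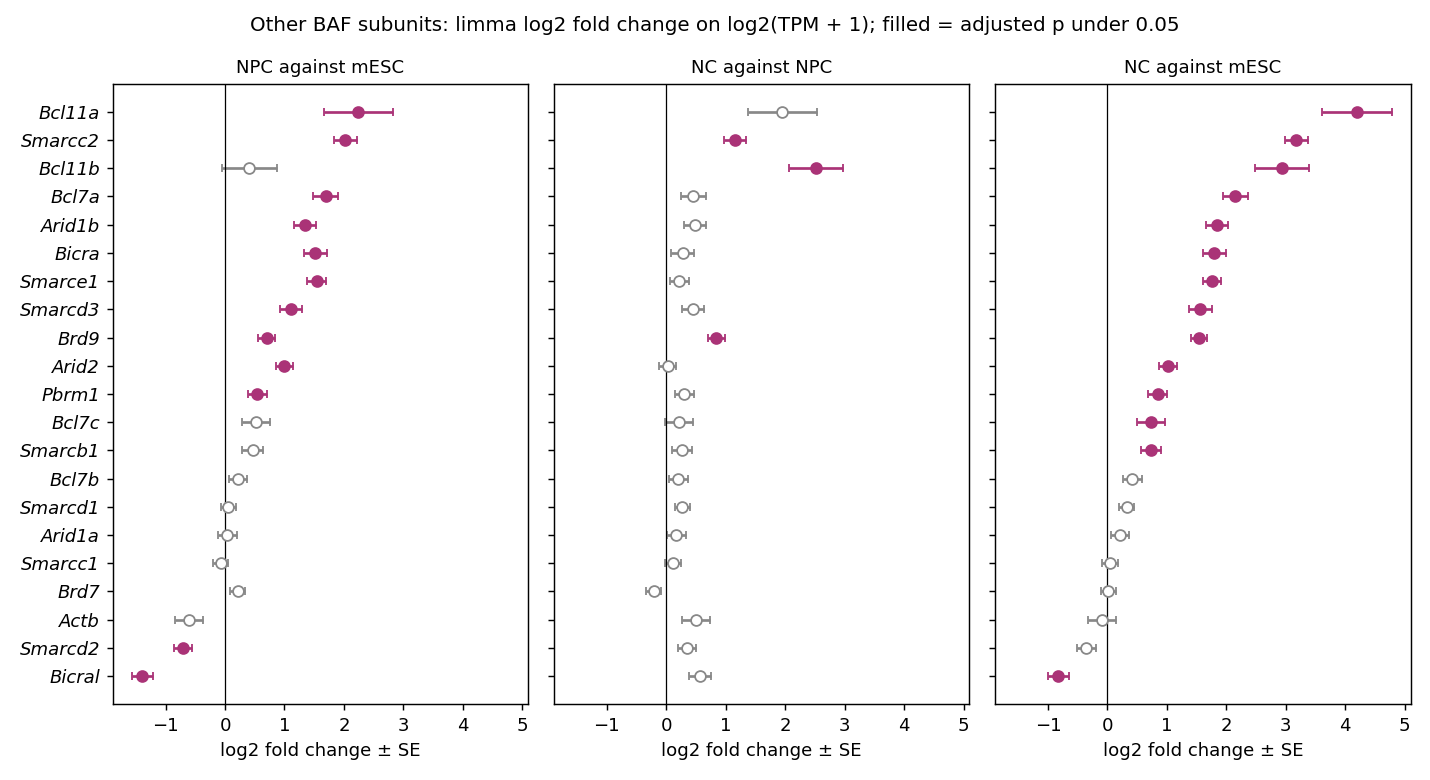
Limma log2 fold change with its SE (horizontal axis) of the 21 other BAF subunits in the 3 comparisons, ordered by NC against mESC, with filled points for an adjusted p under 0.05. Bcl11a (4.19) and Smarcc2 (3.18) lead NC against mESC, and Bicral (-0.82) is its filled point below 0.

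Of the accessory subunits, Bcl11a (CTIP1), a zinc finger factor of neurons, had 1.21 and 3.30 TPM in mESC, 7.06 and 25.4 TPM in NPC, and 64.5 and 47.7 TPM in NC. It rose by a log2 fold change of 4.19 over the whole course (SE 0.585, limma adjusted p = 0.00121). Bcl11b (CTIP2), its paralogue, had 0.624 and 1.31 TPM in mESC, 0.817 and 2.65 TPM in NPC, and 18.8 and 9.96 TPM in NC, and rose in the step from NPC to NC (log2 fold change 2.52, SE 0.454, limma adjusted p = 0.0114). Bcl7a rose from 22.4 ± 5.42 TPM in mESC to 74.0 ± 8.25 in NPC (log2 fold change 1.69, limma adjusted p = 0.00134).

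Subunits that define the forms of the complex also differed. Arid1b rose in the first step, from 13.2 ± 1.06 TPM in mESC to 35.2 ± 0.386 in NPC (log2 fold change 1.35, limma adjusted p = 0.00186), while its paralogue Arid1a did not pass in any comparison (142 ± 17.4 TPM in mESC and 165 ± 21.8 in NC, log2 fold change 0.21, limma adjusted p = 0.28). Arid1b overlaps Gm15599 over 1345 bases on the opposite strand, a gene at 8.35 to 22.5 TPM. The ncBAF bromodomain subunit Brd9 rose in both steps (log2 fold change 0.70 and 0.84, limma adjusted p = 0.00808 and 0.00869). The ncBAF paralogues Bicra and Bicral, listed in the tables as Gltscr1 and Gltscr1l, moved apart in the first step. Bicra had 4.99 and 5.23 TPM in mESC and 15.6 and 17.4 in NPC (log2 fold change 1.51, limma adjusted p = 0.00153), and Bicral 29.9 and 31.6 in mESC and 10.4 and 11.8 in NPC (log2 fold change -1.39, limma adjusted p = 0.00154).

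As a comparison outside the complex, the 19 rows of other remodeller ATPases gave 6 higher and 2 lower between NC and mESC (59.9% of all genes called), with a median log2 fold change of 0.38. Chd3, a subunit of the NuRD complex, had 20.5 and 20.8 TPM in mESC, 98.7 and 112 TPM in NPC, and 172 and 232 TPM in NC (log2 fold change 3.21 between NC and mESC, limma adjusted p = 3.63e-05). Hells, which acts in DNA methylation of dividing cells, fell from 102 ± 14.6 to 13.2 ± 1.36 TPM (log2 fold change -2.86, limma adjusted p = 4.34e-05). Smarca1, an ISWI ATPase, rose by a log2 fold change of 1.64 (limma adjusted p = 0.00159) and Chd7 by 1.46 (limma adjusted p = 0.00155). The other gene that fell was Ino80, by 0.74 on the log2 scale (limma adjusted p = 0.0329). The median of all tested genes was 0.31.

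Over all genes, calls depended on the scaling. As deposited, 65.0% of the genes called in NPC against mESC were higher, against 52.7% after median-of-ratios scaling and 51.2% after quantile normalization. For NC against mESC the shares were 63.2%, 52.3% and 47.2%, and for NC against NPC 60.1%, 54.6% and 47.7%.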

How the data were processed

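Poly(A)-enriched, rRNA-depleted RNA was sequenced on an Ion Proton, per the labels' protocols. The submitters' processing notes name cutadapt 3.4, STAR 2.7.9a and StringTie 2.1.5 and the build mm10. No source used here gives the annotation release or the strand setting. Per the file headers, the authors deposited coverage (a read depth signal), FPKM and TPM per gene, 1 table per library, with no counts, so no counting interval can be given. Repeated lines of a gene ID (2 to 9 per table) were summed.

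A gene was kept if 2 or more of the 6 libraries had a TPM of 1 or higher, and tested with limma 3.58.1 (R 4.3.3, lmFit, eBayes with a trend) on log2(TPM + 1). The fit had 1 coefficient per stage and no replicate block, leaving 3 residual degrees of freedom, and p-values were adjusted over all tested genes of a contrast by Benjamini-Hochberg (threshold 0.05). Fold changes are on the log2(TPM + 1) scale, which understates changes of low genes. Library constants are the most frequent ratio of coverage to FPKM. The model was tested on a simulated NPC against mESC comparison. It recovered 33 of 100 genes changed by 1 on the log2 scale and 87 of 100 changed by 2. Of its 127 calls, 7 were false. The data gave far more calls than this simulation. All members and regulators were named. Of the other BAF subunits past the threshold, up to 6 with the largest changes per contrast were named, and of the other ATPases up to 4 for NC against mESC. Smarcc1, Arid1a, Smarcd2 and Ino80 were added after their values were seen. The members and lists were chosen with earlier results of these data known. Bicra, Bicral and Mir9-3hg were matched by gene ID. Alternatives changed the pseudocount, filter, scaling, unit, block, variance prior and libraries.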

Additional observations from a re-analysis of the deposited data

How the results depend on the processing

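Each of the 30 member results was recomputed under 17 settings, of which 1, rescaled coverage, was chosen after seeing the data. The direction turned in 13 cases, all of results that had not passed. For Dpf1 in NPC against mESC the log2 fold change was 0.49 without mESC replicate 2 (-0.50 without mESC replicate 1), 0.28 without NPC replicate 1 and 0.10 from coverage. Phf10 in NPC against mESC gave -0.046 with median-of-ratios scaling and -0.079 without mESC replicate 2 (0.44 without mESC replicate 1). In NC against NPC it gave 0.11 without NC replicate 1 (-0.40 without NC replicate 2). In NC against mESC it gave -0.27 with median-of-ratios scaling, -0.15 with quantile normalization, -0.23 from FPKM, -0.22 without mESC replicate 2 (0.30 without mESC replicate 1) and -0.22 without NC replicate 2. Dpf2 in NC against NPC gave -0.072 from FPKM and -0.024 without NPC replicate 1 (0.22 without NPC replicate 2). Calls were lost in 27 cases, 14 of them of Smarca4 in single steps and 7 of Ss18 in NC against mESC, and gained in 7. Leaving out 1 library gave 4 to 6 members called in NPC against mESC, 1 to 5 in NC against NPC and 8 to 9 in NC against mESC. It gave 7 to 11 and 0 to 3 other subunits in the first 2 comparisons, and 4032 to 8484 and 309 to 4156 genes overall. From coverage 5 other subunits were called in NC against NPC, and with no filter beyond a TPM above 0 there were 3166 genes. Coverage gave a Smarca2 share of 0.0735%, 1.52% and 0.740% and an Ss18l1 share of 6.79%, 25.2% and 54.9% in mESC, NPC and NC.

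With the replicate number as a block, 6, 4 and 9 members were called in the first step, the next and the whole course, and 7368, 4247 and 11575 genes. The replicate block ended 1 member call, Smarca4 in NC against NPC (limma adjusted p = 0.0515). Replicate differences of the stages correlated at 0.045, -0.082 and -0.070 across genes, which are not independent replicates, and the labels do not pair the samples. With 1 library left in a stage, it is assumed to vary like the others. Depth limits low genes such as Dpf3, with a coverage of 0.219 and 0.303 in NPC.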
